A study of Mus musculus with 6 samples.

Results

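The genes described here encode 6 adipokines, the proteins that fat cells release into the circulation or the surrounding tissue: adiponectin (Adipoq), resistin (Retn), leptin (Lep), adipsin (Cfd), nicotinamide phosphoribosyltransferase (Nampt) and retinol-binding protein (Rbp4). They are 6 of the 21883 protein-coding genes placed on chromosomes 1 to 19, X and Y. A peak was assigned to one of them when its summit lay inside the gene, or when the gene had the nearest end of any coding gene within 100 kb. By that rule 27 of the 68913 merged regions of open chromatin belonged to the 6 genes. The members were picked by name, with earlier results of these data known.

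ATAC-seq, which tags accessible DNA with a transposase, was applied to wild-type cells of a mouse brown pre-adipocyte line labelled BAT. The groups were 3 libraries at day 1 of differentiation toward brown adipocytes and 3 libraries at day 0. The series concerns deletion of RUNX1 or RUNX2; no deleted cells are among these 6 libraries, and neither age nor an inducing agent is given in the labels. The labels do not say whether the libraries of a day came from separate cultures, so p-values reflect spread between libraries alone, and that spread may be technical.

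Adipokines link the size of the fat depots to appetite, to insulin action in liver and muscle, and to innate immunity. Most of them are products of the mature adipocyte, switched on during differentiation by factors such as PPARG and the C/EBP proteins, and brown adipocytes make adiponectin, adipsin and NAMPT as well. An ATAC-seq peak marks DNA that is accessible near a gene and is not a measure of its RNA or protein.

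Day 1 libraries were shallower than day 0 libraries, and this bears on every count of peaks. They held 4919755, 5603667 and 7302457 fragments with 20069, 23274 and 12556 peaks at day 1, against 11011889, 8127635 and 9160156 fragments with 55511, 41993 and 39211 peaks at day 0. Day 1 replicate 3 stood apart. Its median summit height in the 9136 regions called in all 6 libraries was 1.78 FPM (fragments at the summit per 1000000 fragments of the library), and the medians of the other 5 libraries were between 2.62 and 3.94. Most comparisons are therefore given for the lists as deposited and for equal lists. Equal lists hold the 12556 peaks of each library with the highest −log10 q of the authors. Genes of the cell-type marker lists were counted when a summit lay within 1 kb of either end: of 12 preadipocyte and mesenchymal markers, 2, 3 and 1 were counted in day 1 libraries and 5, 5 and 4 in day 0 libraries, with Pdgfra, Cd34, Dlk1, Dpp4, Pi16 and Zfp423 in none. Of 7 mature adipocyte markers, 3, 3 and 4 were counted at day 1 and 2 at day 0 in each library, while Ucp1, Cidea and Lipe had no such peak in any library. Of 8 immune markers, none was counted at day 1 and 3, 2 and 2 at day 0, with Ptprc, Adgre1, Csf1r, Itgam and Cd3e in none. Of 7 endothelial markers, 0, 1 and 0 were counted at day 1 and 1 at day 0 in each library, and of 5 myogenic markers 1 in day 0 replicate 1 alone. Their part in the values below was not tested. No counts on equal lists are given for these markers. On the deposited lists, 38.9%, 42.0% and 31.9% of all coding genes had such a peak in day 1 libraries. In day 0 libraries the shares were 50.2%, 46.6% and 44.6%.

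The 6 genes together held 10, 10 and 5 peaks in day 1 libraries and 21, 16 and 11 peaks in day 0 libraries. The groups did not overlap, and day 1 was lower. As a share of all peaks of a library the order turned round: adipokine peaks made up 0.0498%, 0.0430% and 0.0398% at day 1 and 0.0378%, 0.0381% and 0.0281% at day 0, again without overlap. In equal lists the genes held 6, 4 and 5 peaks at day 1 against 2, 3 and 2 at day 0. So the day with more adipokine peaks depended on whether the lists were taken whole or cut to equal length. Equal length does not mean an equal q cutoff, since the list of day 1 replicate 3 was kept whole and the others were cut. On the deposited lists, 33.7% of the 15794 coding genes with a peak had fewer peaks in every day 1 library than in every day 0 library and 0.177% had more. On equal lists, 6.66% of 12066 genes had fewer and 6.53% had more. On the deposited lists Lep and Cfd, 2 of the 6 genes, had fewer peaks in every day 1 library, which is near the share of all genes. None of the 6 had more there. On the equal lists Retn and Nampt, 2 of the 4 genes with a peak there, had more in every day 1 library.

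**Figure D1:**
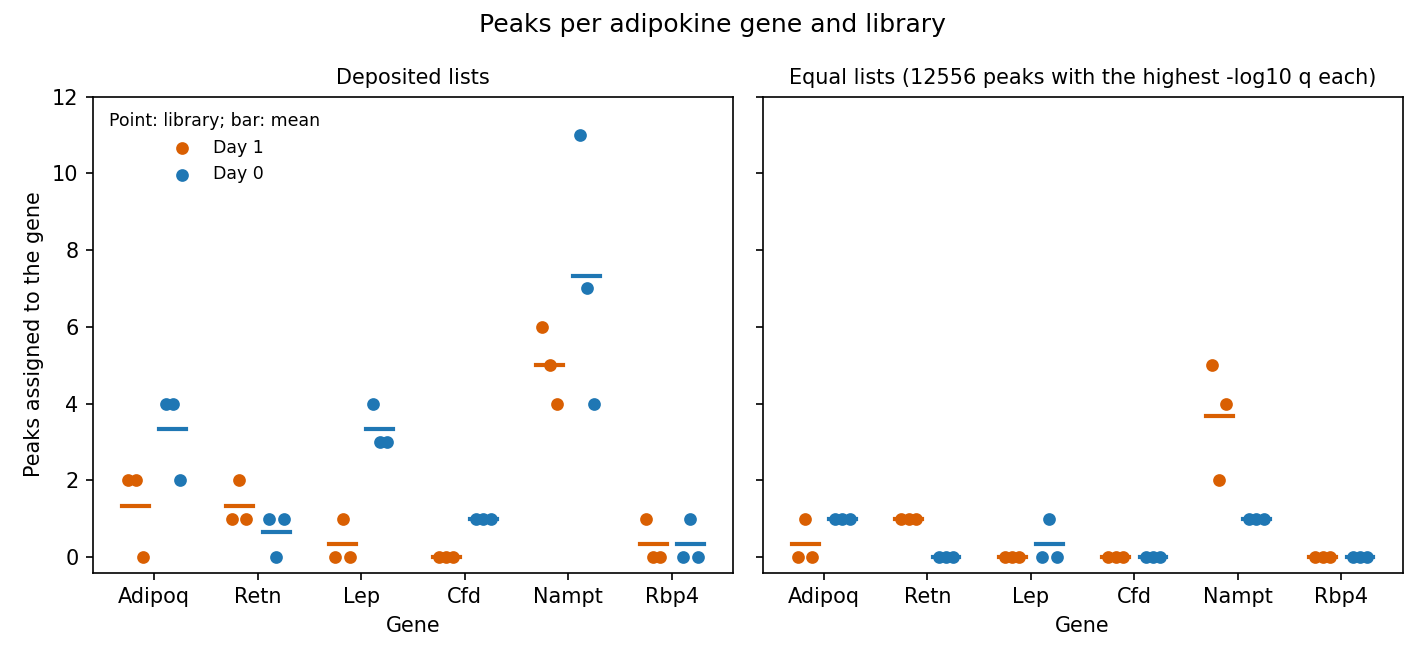
Peaks assigned to each adipokine gene (vertical axis, number of peaks) in the deposited lists (left) and in equal lists of 12556 peaks (right). Points are libraries, 3 at day 1 (orange) and 3 at day 0 (blue), and bars are means: Lep and Cfd points lie lower at day 1 on the left, and Retn and Nampt points lie higher at day 1 on the right.

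Peaks at the ends of the genes, meaning summits within 1 kb of the annotated start or end, were called at 3, 3 and 2 of the 6 genes at day 1 and at 3, 4 and 3 at day 0. In equal lists they were called at 2 genes in each day 1 library and at 1 gene in each day 0 library. Over all coding genes the share with such a peak was 38.9%, 42.0% and 31.9% at day 1 and 50.2%, 46.6% and 44.6% at day 0 on the deposited lists, and 31.8%, 33.7% and 31.9% at day 1 and 27.0%, 26.9% and 25.7% at day 0 on the equal lists. Nampt was called at its start in every library, Retn in 5 of 6, Lep at neither end in any.

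Regions called in 3 of 3 libraries of one day and 0 of 3 of the other give the plainest difference. On the deposited lists no adipokine region was day 1 only, where 0.607% of all regions were, and 3 of 27 were day 0 only, where 17.5% of all regions were. Those 3 lay near Lep, Cfd and Adipoq, 1 each. On equal lists the genes kept 9 of 23438 regions. Of these 9, those at Retn and at Nampt that are described below were day 1 only, against 5.71% of all regions, and 1 near Adipoq was day 0 only, against 9.11%. With day 1 replicate 3 left out and lists cut to the shortest one left, 4 adipokine regions were day 1 only and 0 were day 0 only, against 8.49% and 10.8% of all regions. With the same library left out and the lists kept at 12556 peaks, the numbers were 2 and 1, against 8.99% and 10.7%. With day 1 replicate 2 left out, 4 were day 1 only, against 7.97%. Counted by gene, 2 of the 4 adipokine genes with a peak in an equal list had a day 1 only region and 1 had a day 0 only region. Of all genes with a peak the shares were 10.2% and 12.9%, not matched for the number of peaks per gene.

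**Figure D2:**
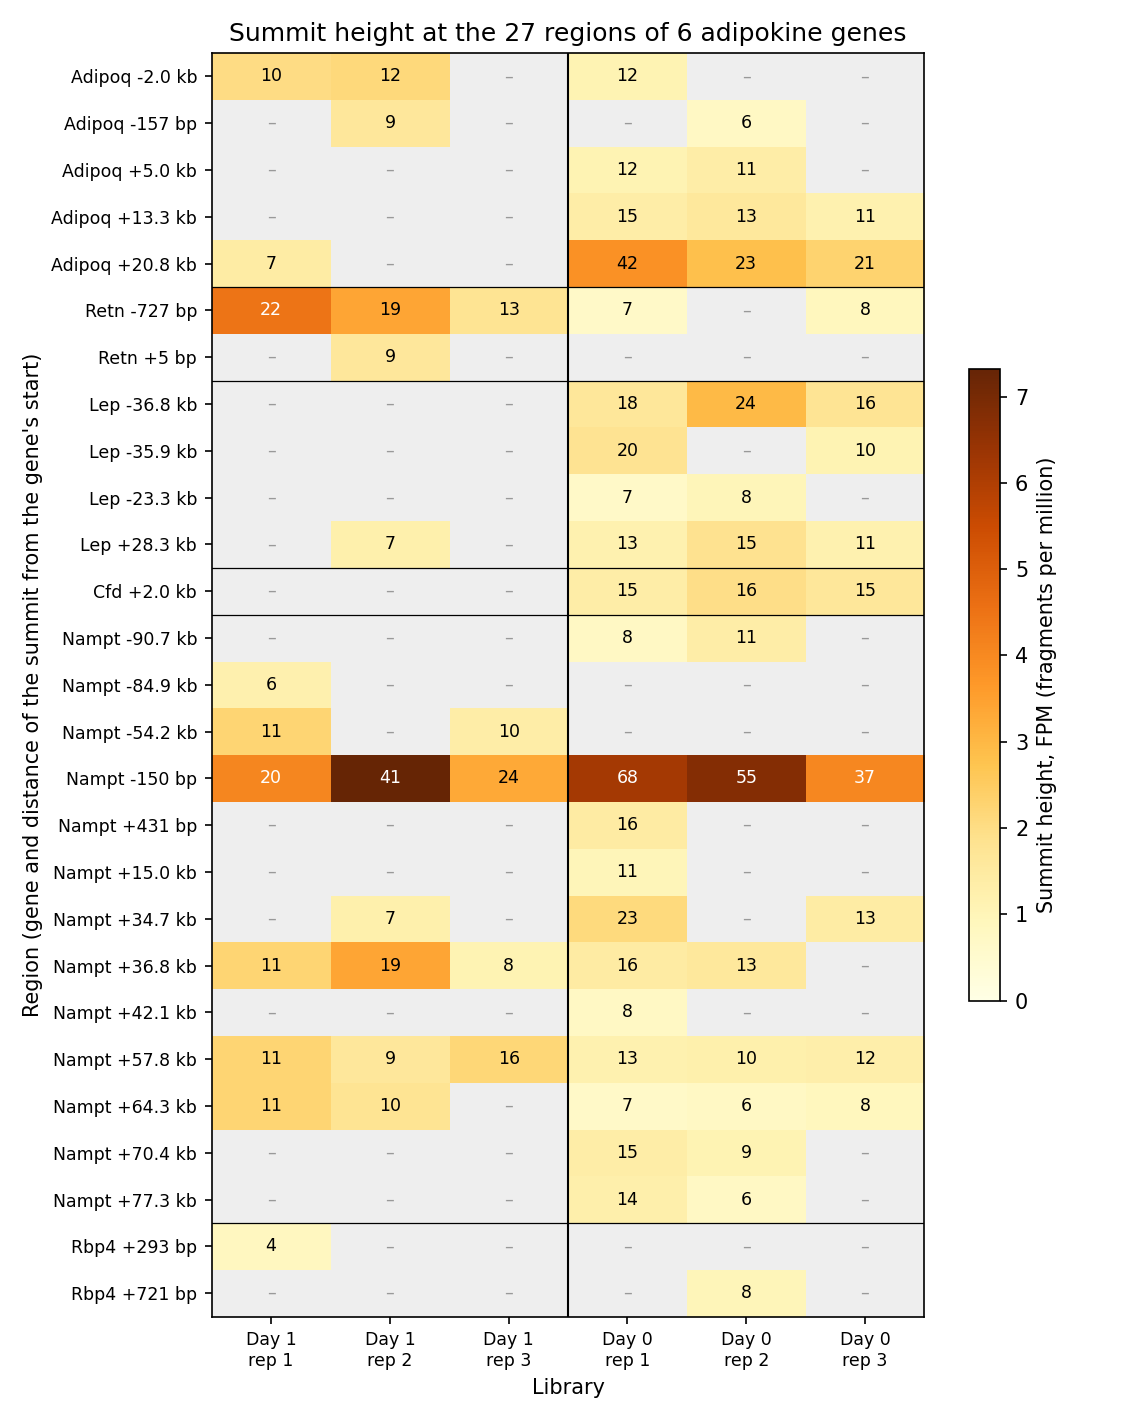
Summit height of the 27 regions (rows, by gene and distance of the summit from the gene's start) in each library (columns, day 1 left of day 0). Numbers are fragments at the summit, colour is FPM, and a dash on grey marks a region not called: the start of Nampt was called in all 6 libraries, and Retn -727 bp was tallest in the day 1 libraries.

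Adiponectin, encoded by Adipoq, raises insulin sensitivity and fatty acid oxidation in liver and muscle, and is among the most abundant products of adipocytes. The gene lies on the plus strand at chr16:23146536-23157968 and had 5 regions. It held 2, 2 and 0 peaks in day 1 libraries and 4, 4 and 2 peaks in day 0 libraries, a difference of -2.0 with overlapping groups (exact two-sided permutation test, p = 0.3, where 3 libraries against 3 cannot go below 0.1).

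The tallest Adipoq region lay 20.8 kb from the start and 9.36 kb past the end of the gene, at chr16:23167009-23167535, outside any annotated gene. Its summit held 7 fragments in day 1 replicate 1 and was not called in the other day 1 libraries, while it held 42, 23 and 21 fragments at day 0. In equal lists it was present in each day 0 library and absent from each day 1 library. Scaled by fragment totals, the mean day 0 height of 2.98 ± 0.772 FPM (SD, n = 3) equals 14.7, 16.7 and 21.8 fragments in day 1 replicates 1, 2 and 3. Scaled by the median height of regions called in all 6 libraries, it equals 15.5, 18.9 and 11.2. The smallest summits in those lists held 4, 4 and 5 fragments. Of the peaks called in those lists, 63.6%, 66.1% and 87.1% were no taller than the day 0 height by fragment totals. By shared regions the shares were 67.4%, 71.4% and 48.8%. The part of depth in the missing day 1 calls was not tested. Scaling heights in this way was a choice made with the data in view, and it carries no test.

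A second region 13.3 kb from the start and 1.89 kb past the end, at chr16:23159761-23160109, was not called at day 1 and held 15, 13 and 11 fragments at day 0. Its day 0 height, 1.39 ± 0.201 FPM (SD, n = 3), equals only 6.83, 7.78 and 10.1 fragments in day 1 libraries by fragment totals and 7.31, 8.93 and 5.28 by shared regions. Of the peaks called in those day 1 libraries, at most 41.5% were no taller. It was in no equal list of either day. The part of depth in its missing day 1 calls was not tested. Inside the gene, 5.0 kb from the start at chr16:23151303-23151666, a region was not called at day 1 and held 12 and 11 fragments in day 0 replicates 1 and 2. Upstream of the start the pattern was different. At chr16:23144424-23144662, 2.0 kb before the start, the summit held 10 and 12 fragments in day 1 replicates 1 and 2 and 12 fragments in day 0 replicate 1. At the start itself (chr16:23146271-23146552, summit at -157 bp) it held 9 fragments in day 1 replicate 2 and 6 in day 0 replicate 2. Neither upstream region separated the days, whereas all 3 regions inside or past the gene were called mainly at day 0.

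The 250 bases before the Adipoq start are shown because a peak over the start was called in only 1 library of each day; they are poor in CpG, and none of the motifs searched was found in them (RefSeq, GRCm38.p6, chr16:23146286-23146535, plus strand).

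Adipoq: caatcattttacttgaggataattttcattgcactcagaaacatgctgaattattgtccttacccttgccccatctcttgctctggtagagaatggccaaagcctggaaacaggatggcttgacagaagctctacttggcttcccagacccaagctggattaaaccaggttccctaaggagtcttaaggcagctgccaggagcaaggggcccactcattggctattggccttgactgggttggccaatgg

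Resistin, encoded by Retn, opposes insulin action on the liver in mice and is made by mouse adipocytes. The gene lies on the plus strand at chr8:3655770-3659818. It had the clearest region with a taller peak at day 1, 727 bp before its start at chr8:3654856-3655326. Its summit held 22, 19 and 13 fragments in day 1 libraries, against 7 and 8 fragments in day 0 replicates 1 and 3, and it was not called in day 0 replicate 2. Every day 1 value was above every day 0 value, although each day 1 library had fewer fragments. In FPM the heights were 4.47, 3.39 and 1.78 at day 1 and 0.636 and 0.873 in the day 0 libraries where it was called.

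Ranked by q within its own list, the Retn region was number 3014, 6569 and 5218 at day 1 and number 48521 and 29138 in day 0 replicates 1 and 3. The region was therefore in all 3 equal lists of day 1 and in none of day 0. A summit of the mean day 1 height, 3.21 ± 1.35 FPM (SD, n = 3), would hold 35.4, 26.1 and 29.4 fragments in day 0 replicates 1, 2 and 3 by fragment totals, and 43.7, 32.9 and 24.7 by shared regions. Of the peaks in those lists, 78.0% to 89.0% were at or below that height by fragment totals. A second Retn peak, at the start itself (chr8:3655660-3655805, summit 5 bp inside the gene), was called only in day 1 replicate 2, with 9 fragments. By number of peaks Retn had 1, 2 and 1 at day 1 and 1, 0 and 1 at day 0, which overlap (exact permutation test, p = 0.6). In equal lists it had 1 in each day 1 library and 0 in each day 0 library (exact permutation test, p = 0.1, the smallest that 3 against 3 allows).

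The 250 bases before the Retn start, which the peak at -727 bp does not reach, are shown for comparison. They held none of the motifs searched (RefSeq, GRCm38.p6, chr8:3655520-3655769, plus strand).

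Retn: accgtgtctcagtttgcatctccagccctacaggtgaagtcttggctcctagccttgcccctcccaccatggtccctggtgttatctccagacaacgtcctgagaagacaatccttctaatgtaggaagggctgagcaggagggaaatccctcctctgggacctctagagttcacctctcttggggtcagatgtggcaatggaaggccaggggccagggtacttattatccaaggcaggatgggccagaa

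Leptin, encoded by Lep, tells the hypothalamus how much fat is stored and lowers food intake. The gene lies on the plus strand at chr6:29060221-29073876. It had 4 regions, all of them more than 14 kb outside the gene, and no peak inside it or within 1 kb of either end in any library. Lep held 0, 1 and 0 peaks in day 1 libraries and 4, 3 and 3 peaks in day 0 libraries, a difference of -3.0 without overlap (exact permutation test, p = 0.1, the smallest possible). Of all coding genes with a deposited peak, 33.7% also had fewer in every day 1 library. In equal lists only 1 peak was left, in day 0 replicate 2.

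The Lep region at chr6:29023265-29023488, 36.8 kb before the start, was not called at day 1 and held 18, 24 and 16 fragments in day 0 libraries. Its day 0 height of 2.11 ± 0.731 FPM (SD, n = 3) equals 10.4, 11.8 and 15.4 fragments in day 1 libraries by fragment totals and 11.0, 13.5 and 7.97 by shared regions. A neighbouring region at 35.9 kb before the start (chr6:29024054-29024401) held 20 and 10 fragments in day 0 replicates 1 and 3. Both lie outside annotated genes. A lower one at 23.3 kb before the start (chr6:29036779-29037105), within the long non-coding RNA gene Lnclep, held 7 and 8 fragments in day 0 replicates 1 and 2. None of these 3 upstream regions was called in any day 1 library. The region past the gene, 14.7 kb beyond its end at chr6:29088113-29088691, held 7 fragments in day 1 replicate 2 and 13, 15 and 11 fragments at day 0. At the day 0 height it would hold 6.93, 7.90 and 10.3 fragments in day 1 replicates 1, 2 and 3 by fragment totals. By shared regions it would hold 7.4, 9.04 and 5.34. In replicate 2, 7 were measured, and the region was not called in replicates 1 and 3. The part of depth in these missing calls was not tested.

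The Lep promoter is shown because it is rich in GC yet had no peak. Of its 300-base window, 250 bases before the start and 50 after it, 66.0% was G or C, in group 4 of 4 when promoters were divided evenly by GC, the group richest in GC, of which 27.5% had no peak in any library. Capitals mark the C/EBP motif TTGCNNAA and the GC box GGGCGG (RefSeq, GRCm38.p6, chr6:29059971-29060220, plus strand).

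Lep: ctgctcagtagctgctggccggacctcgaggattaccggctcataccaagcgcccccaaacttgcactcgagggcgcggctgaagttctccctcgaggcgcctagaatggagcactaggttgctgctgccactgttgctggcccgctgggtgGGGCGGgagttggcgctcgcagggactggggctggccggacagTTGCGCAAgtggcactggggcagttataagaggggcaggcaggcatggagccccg

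The C/EBP match TTGCGCAA lies at -55 to -48 relative to the Lep start, and 10.8% of the 32851 promoter windows of the table held such a match on either strand. The GC box lies at -98 to -93, and 35.7% of windows held one. A match is a string of letters and not evidence that a factor was bound.

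**Figure D3:**
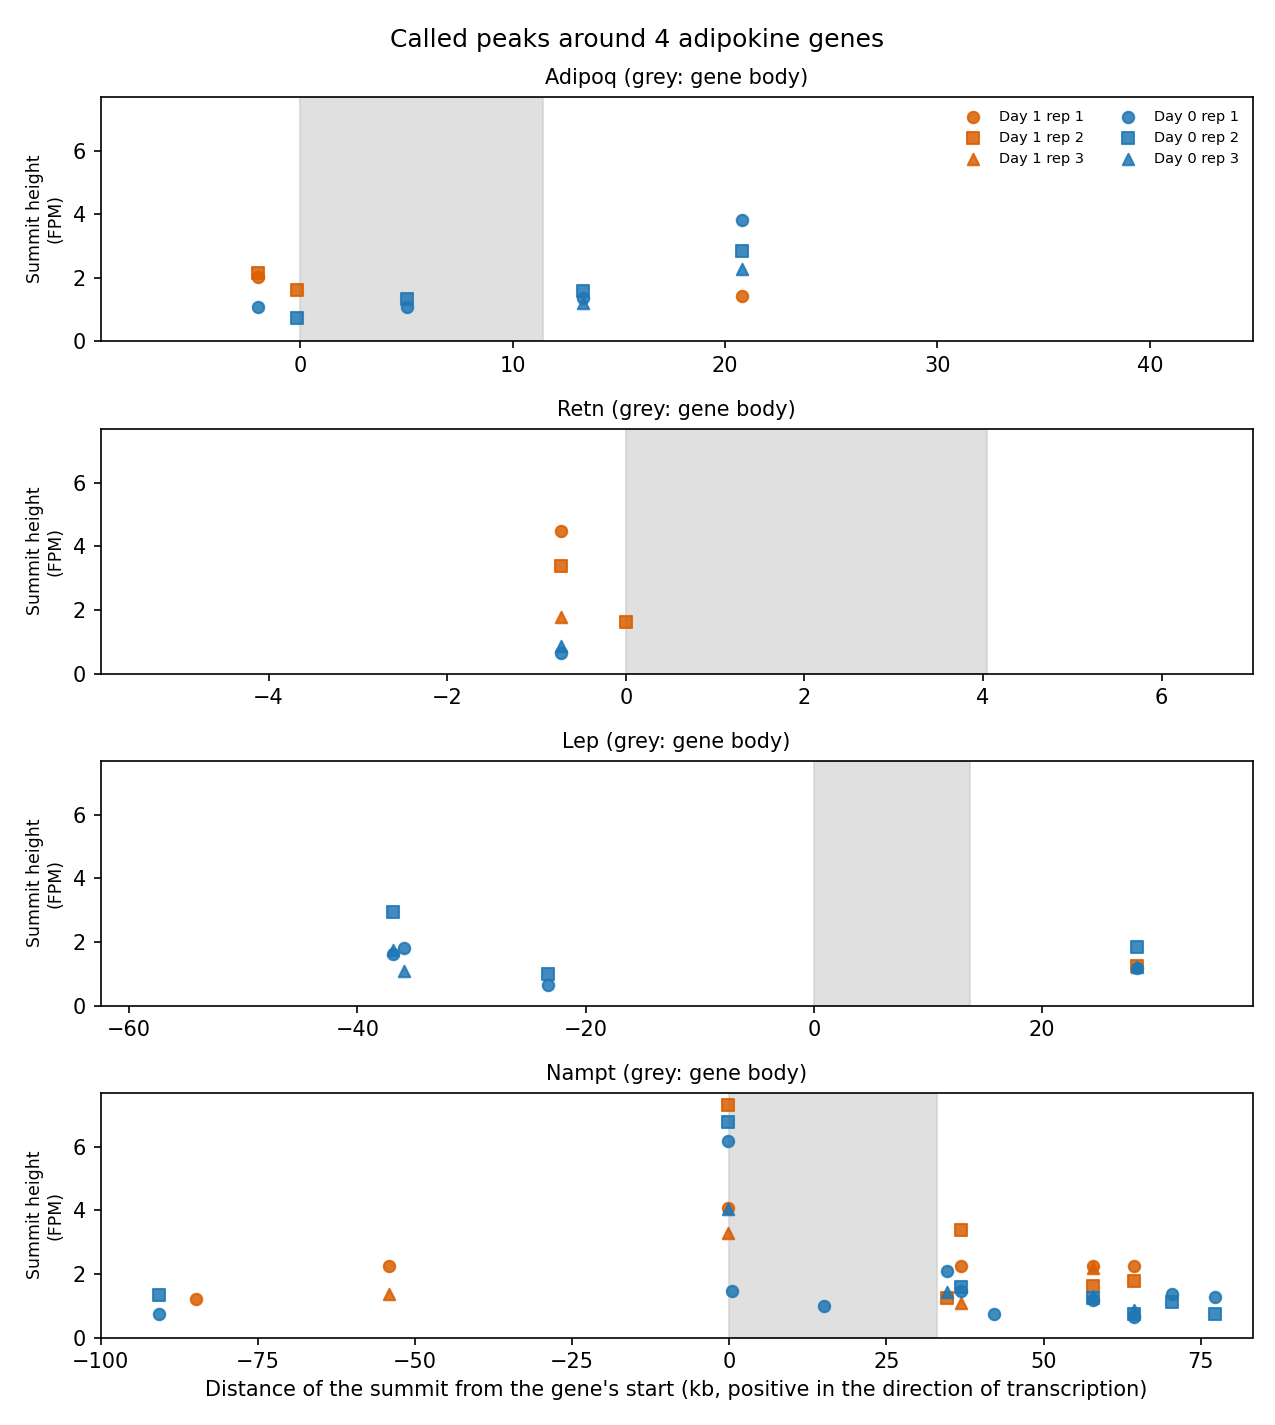
Height of each called summit (vertical axis, FPM) by its distance in kb from the start of Adipoq, Retn, Lep and Nampt, over the interval in which a summit is assigned to that gene; the gene is grey. Orange marks are day 1 and blue marks day 0 libraries: Retn marks before the gene are higher at day 1, and Lep has marks only outside the gene.

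Adipsin, encoded by Cfd, is complement factor D, the serine protease that cleaves factor B to start the alternative pathway of complement. The gene lies on the plus strand at chr10:79890853-79892655, so close to its neighbours that the rule covers only 4.15 kb. Its 1 region, 243 bp past the end at chr10:79892835-79893034, was not called in any day 1 library and held 15, 16 and 15 fragments in day 0 libraries. The count was 0 against 1 peak per library (exact permutation test, p = 0.1, the smallest possible), where 33.7% of all coding genes with a deposited peak also had fewer in every day 1 library. At the same height, 1.66 ± 0.304 FPM (SD, n = 3), day 1 libraries would hold 8.15, 9.28 and 12.1 fragments by fragment totals and 8.87, 10.8 and 6.40 by shared regions. Of the called peaks, 29.9%, 35.6% and 55.8% in day 1 replicates 1, 2 and 3 were no taller than that by fragment totals, and 29.9%, 41.3% and 7.68% by shared regions, so the scalings differ most in replicate 3. It was in no equal list of either day. The start of Cfd had no peak at either day.

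**Figure D4:**
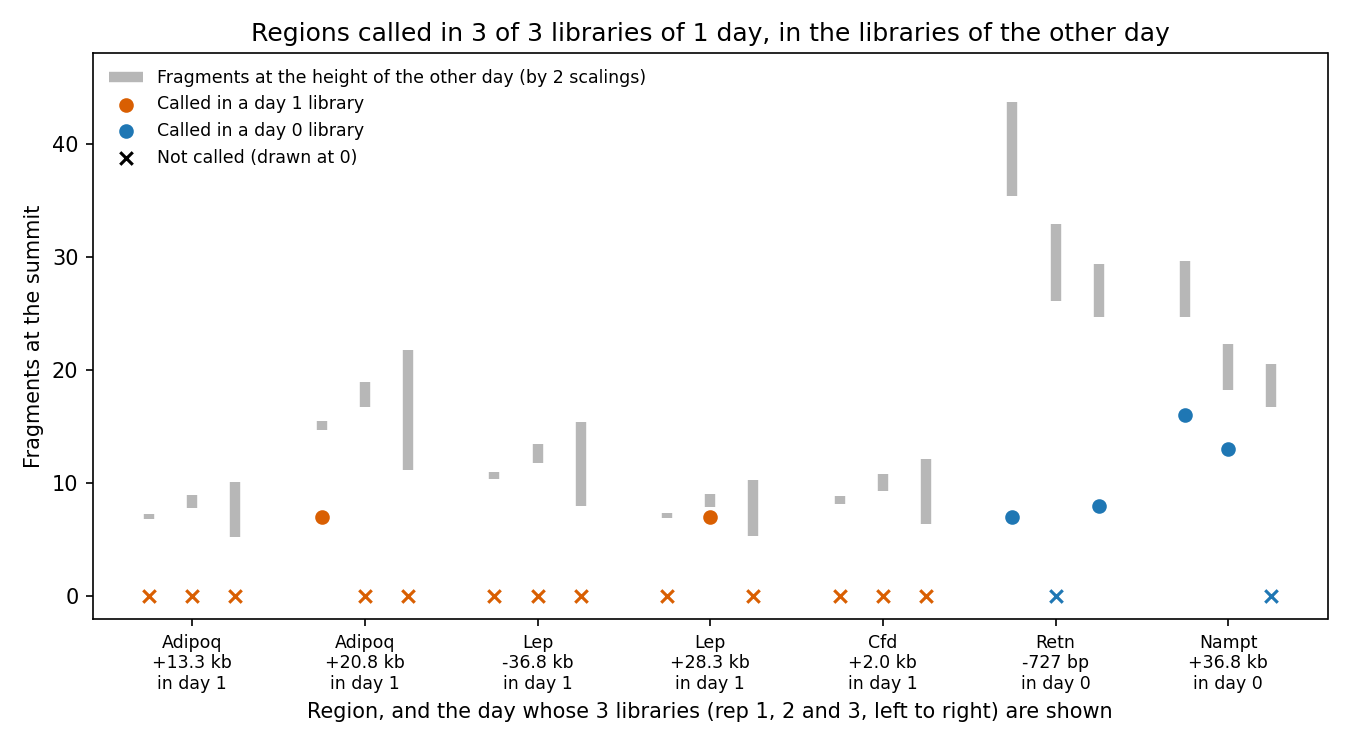
Regions called in 3 of 3 libraries of one day and in fewer of the other, where all peaks of the region overlapped, shown in the 3 libraries of that other day. Grey bars span the fragments at the summit (vertical axis) that the mean height of the first day would give. The 2 ends are by fragment totals and by regions called in all 6 libraries, and spread between libraries of the first day is not drawn. Points are the fragments measured in day 1 (orange) or day 0 (blue) libraries and crosses are libraries with no call. Retn -727 bp had 7 and 8 measured, where the mean day 1 height gives 24.7 or more.

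NAMPT makes nicotinamide mononucleotide, the limiting step in the recycling of nicotinamide to NAD, and is also released from fat cells. Nampt lies on the plus strand at chr12:32820335-32853369 and is a broadly used gene, unlike the hormone genes above. It had 13 of the 27 regions, over an assigned interval of 183 kb, the widest of the 6, against 12.9 kb for Retn and 4.15 kb for Cfd. Its number of peaks was 6, 5 and 4 in day 1 libraries and 11, 7 and 4 in day 0 libraries, with overlap (exact permutation test, p = 0.5). In equal lists it was 5, 2 and 4 at day 1 and 1 in each day 0 library, without overlap (exact permutation test, p = 0.1, the smallest possible).

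The start of Nampt, at chr12:32819806-32820574 with its summit at -150 bp, had the highest mean height of the 27 regions at each day, although the Retn region at -727 bp was taller in day 1 replicate 1. Its summit held 20, 41 and 24 fragments in day 1 libraries and 68, 55 and 37 in day 0 libraries, which is 4.07, 7.32 and 3.29 FPM at day 1 and 6.18, 6.77 and 4.04 at day 0. The scaled heights overlap. It was in the equal list of every library. Centred on each library's median over the 9136 regions called everywhere, the log2 height was 0.62 ± 0.41 at day 1 and 0.68 ± 0.08 at day 0 (SD, n = 3 each). The fitted day 1 minus day 0 difference was -0.06 on the log2(fragments + 1) scale (SE 0.18, limma with Benjamini-Hochberg adjustment, adjusted p = 0.875), which the spread between libraries covers. By the same test, 8.00% of those regions were higher at day 1 and 6.98% were lower.

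The Nampt promoter is shown because it was open at both days. Of its 300-base window 76.3% was G or C, above 97.1% of promoters, with 36 CpG. In that richest group of promoters, 41.6% of windows were overlapped by a peak in all 6 libraries, against 1.24% in group 1, with the least GC. Capitals mark GC boxes (GGGCGG, or CCGCCC on the other strand) and TGACG, part of the cAMP response element TGACGTCA (RefSeq, GRCm38.p6, chr12:32820085-32820334, plus strand).

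Nampt: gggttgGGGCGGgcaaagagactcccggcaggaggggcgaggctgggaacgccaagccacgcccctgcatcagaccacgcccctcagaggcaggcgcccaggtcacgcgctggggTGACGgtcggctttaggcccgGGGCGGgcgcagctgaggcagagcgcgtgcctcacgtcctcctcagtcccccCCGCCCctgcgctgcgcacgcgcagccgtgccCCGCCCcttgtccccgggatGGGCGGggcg

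The sequence holds 5 GC boxes, and its TGACG lies at -135 to -131; TGACG was in 20.8% of all windows on either strand. The other adipokine windows with a match for GC boxes were those of Lep and Rbp4. Besides these, the search covered TGANTCA (AP-1, in 7.81% of windows), TGACGTCA (1.79%), AGGNCA repeated 1 base apart (DR1, 0.381%), TGTGGT (RUNX, 16.8%), CCCNNGGG (EBF, 13.7%), CACGTG (E-box, 7.15%), TATAAA (13.6%) and AGAACA (part of the glucocorticoid receptor element, 19.0%). None of these was in the windows of Nampt, Lep, Retn, Adipoq or Cfd. Overlapping matches of different motifs were each counted.

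Past the end of Nampt, 4 regions outside annotated genes were called at both days. The one 1.65 kb past the end, at chr12:32854958-32855404, held 7 fragments in day 1 replicate 2 and 23 and 13 in day 0 replicates 1 and 3, and was in no equal list. At chr12:32856927-32857467, 3.79 kb past the end, the summit held 11, 19 and 8 fragments in day 1 libraries and 16 and 13 in day 0 replicates 1 and 2. It was not called in day 0 replicate 3. This region was in all equal lists of day 1 and none of day 0. Its −log10 q was 8.46, 14.7 and 3.05 in day 1 libraries and 7.58 and 6.89 in day 0 replicates 1 and 2. The equal list of day 1 replicate 3 is its whole deposited list, in which the region was number 10958. A summit of its mean day 1 height, 2.24 ± 1.15 FPM (SD, n = 3), would hold 24.7, 18.2 and 20.5 fragments in day 0 libraries by fragment totals and 29.6, 22.3 and 16.7 by shared regions, above the 16 and 13 measured. Its height of 1.10 FPM in day 1 replicate 3 was nevertheless below the 1.45 and 1.60 of the day 0 libraries, so heights overlap.

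At chr12:32878004-32878518, 24.8 kb past the end, the summit held 11, 9 and 16 fragments in day 1 libraries and 13, 10 and 12 in day 0 libraries, or 2.24, 1.61 and 2.19 FPM at day 1 and 1.18, 1.23 and 1.31 at day 0. In FPM, every day 1 library was above every day 0 library. The centred log2 height was -0.53 ± 0.75 at day 1 and -1.39 ± 0.39 at day 0 (SD, n = 3 each), where the groups overlap. The fitted difference was 0.86 (SE 0.28, limma, adjusted p = 0.0296), so the region was higher at day 1 by this test. The call was lost without day 1 replicate 3, where the difference was 0.46 (adjusted p = 0.312), without day 0 replicate 1 (adjusted p = 0.128) and without day 0 replicate 2 (adjusted p = 0.121). With heights in FPM the difference was 0.63 (adjusted p = 0.925).

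A region 31.3 kb past the end (chr12:32884052-32884734) held 11 and 10 fragments in day 1 replicates 1 and 2 and 7, 6 and 8 fragments in day 0 libraries. It was not called in day 1 replicate 3. These heights belong to neighbouring peaks joined by the merging: the day 0 replicate 1 peak overlapped both day 1 peaks, and those of day 0 replicates 2 and 3 overlapped neither. Upstream, 54.2 kb before the start at chr12:32765901-32766193 and within the long non-coding RNA gene Gm40376, a region held 11 and 10 fragments in day 1 replicates 1 and 3 and was not called at day 0. The other 7 Nampt regions were called in 1 or 2 libraries each, 1 of them in day 1 replicate 1 alone and 6 in day 0 libraries alone.

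**Figure D5:**
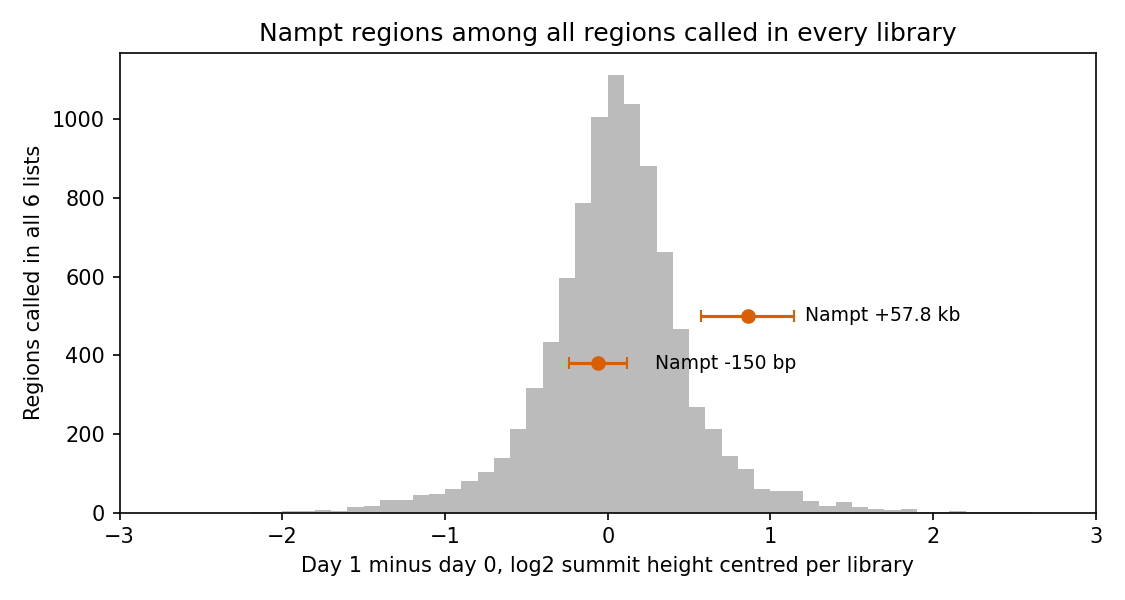
Day 1 minus day 0 difference in log2 summit height, centred per library (horizontal axis), for the 9136 regions called in all 6 libraries (grey bars, number of regions). Orange points with bars of 1 SE are the Nampt regions, -0.06 at the start and 0.86 at 24.8 kb past the end; their height on the page has no meaning.

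The retinol-binding protein encoded by Rbp4 carries vitamin A from liver and fat through the blood. Its gene lies on the minus strand at chr19:38116620-38125321. It had the fewest peaks of the 6, with 1 summit 293 bp inside the gene with 4 fragments in day 1 replicate 1 (chr19:38125001-38125175) and another 721 bp inside with 8 fragments in day 0 replicate 2 (chr19:38124472-38124632). No Rbp4 region was called in more than 1 library, and the number of peaks, 1, 0 and 0 at day 1 and 0, 1 and 0 at day 0, did not separate the days (exact permutation test, p = 1). Its promoter windows, 1 for each of its annotated starts, were 40.7% and 72.0% G or C, and only the second was overlapped by a peak, in day 1 replicate 1. The first held RUNX matches, and the second held matches of AP-1, C/EBP, TGACG, GC box and TATAAA.

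Compared with all regions, fewer adipokine regions of the deposited lists were shared by every library: 2 of 27, or 7.41%, against 13.3% of all regions. Of the 27, 4 were called at day 1 alone (14.8%, against 8.79% of all regions), 13 at day 0 alone (48.1%, against 59.0%) and 10 at both days (37.0%, against 32.2%). Regions called in a single library made up 25.9% of those of the adipokine genes and 35.0% of all. Within 1 kb of a gene end lay 29.6% of the adipokine regions and 18.4% of all. Their median width was 296 bp, against 308 bp over all regions. These shares rest on few regions, 13 of them near 1 gene, and were not tested. On equal lists the order of the days turned round. Of 9 adipokine regions there, 6 were called at day 1 alone (66.7%, against 30.2% of all regions). At day 0 alone 2 were called (22.2%, against 25.8%), and 1 was called in every library (11.1%, against 22.8%). These shares were not tested either.

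Only Nampt had enough peaks, a mean of 6.17 per library, for a search for coding genes with a similar number in each library. Of 15793 other genes the nearest by Euclidean distance of log2(peaks + 1) were Noct, at 0.222, Itpk1, at 0.491, and Lama4, at 0.512. Noct, which encodes the clock-controlled phosphatase nocturnin, had 5, 5 and 4 peaks at day 1 and 11, 7 and 4 at day 0. The likeness is one of counts in 6 libraries.

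Receptors, partners and regulators of the adipokines were read in the same way. Over all coding genes with a peak, 10.2% had a day 1 only and 12.9% a day 0 only region in equal lists, against 2.45% and 38.4% on the deposited lists. These shares were not matched to the lists below for the number of peaks per gene, and a gene with more peaks has more regions to count. Of 18 receptor and signalling genes, 15 had a peak in an equal list, 5 of them with a day 1 only region and 4 with a day 0 only region. On the deposited lists 16 had a peak, 3 with a day 1 only and 8 with a day 0 only region. The insulin receptor substrate Irs2 had 3 day 1 only regions and no day 0 only region, with 5 peaks in each day 1 library and 1, 2 and 1 peaks in day 0 libraries of the equal lists. Irs2 turned round on the deposited lists, with 1 day 1 only and 3 day 0 only regions and 9, 10 and 5 peaks at day 1 against 20, 13 and 8 at day 0. Of 23 regulators of adipokine genes, all with a peak in an equal list, 7 had a day 1 only region and 7 a day 0 only region in equal lists, against 2 and 16 on the deposited lists. Pparg, the nuclear receptor that drives adipogenesis, had 1 day 1 only region and 2 day 0 only regions, Runx1 had the same numbers, and Runx2 had 1 of each in equal lists. Pparg had 0 and 5 on the deposited lists, Runx1 0 and 3, and Runx2 1 and 1.

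Of 35 other secreted adipose factors, 22 had a peak in an equal list, 3 with a day 1 only and 4 with a day 0 only region, against 1 and 16 on the deposited lists. The chemokine gene Ccl2 had 2 day 0 only regions and 0, 1 and 0 peaks in day 1 libraries against 3, 3 and 4 in day 0 libraries of the equal lists. Its deposited lists held 1, 2 and 0 peaks at day 1 against 7, 7 and 6 at day 0. Of 16 genes of vitamin A handling, which act with RBP4, 10 had such a peak, 1 with a day 1 only region and 2 with a day 0 only region, against 1 and 10 on the deposited lists. The retinaldehyde reductase gene Dhrs3 had 3 day 1 only regions and 1 day 0 only region, and the retinoic acid receptor gene Rarb had 2 day 0 only regions in equal lists. Dhrs3 on the deposited lists had 1 day 1 only and 6 day 0 only regions, with 8, 8 and 7 peaks at day 1 against 16, 15 and 14 at day 0, and Rarb had 10 day 0 only regions. Of 16 genes of NAD metabolism, 11 had such a peak and 1, Parp1, had a day 1 only region. Of 12 genes for adiponectin folding and secretion, 10 had one and 1, Plod3, had a day 1 only region. Of 8 genes of the alternative complement pathway, 3 had one and none had a region of either kind. On the deposited lists no gene of these 3 lists had a day 1 only region, and 5, 4 and 0 had a day 0 only region in the order given. The median log2 ratio of mean peak number plus 1, day 1 over day 0, was 0.29 over the 4 adipokine genes in equal lists and 0.00 over all coding genes, and on the deposited lists -0.68 over the 6 and -0.59 over all coding genes. Over the other 7 lists it was between -0.07 (vitamin A handling) and 0.41 (NAD metabolism) in equal lists, and between -1.05 (regulators of adipokine genes) and 0.00 (alternative complement pathway) on the deposited lists.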

How the data were processed

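ATAC-seq peak lists of 6 libraries, 3 per day, were used as deposited. Peaks were called per library by the authors with MACS2 2.2.7.1 on paired-end fragments without a control, at a q cutoff of 0.05 with a local background over 10000 bp, per the file headers. The build is mm10, per the submitters' processing notes, which also name HOMER 4.11, DiffBind 3.8.4, deepTools 3.5.1, SAMtools 1.15.1, Bowtie2 2.4.4 and Trim Galore 0.6.7. The deposited pileup is a signal in whole fragments at the summit, not scaled to depth. The deposited −log10 p and −log10 q set it against the local background, and the deposited fold enrichment is its ratio to that background; peak length is in bp, per the file headers. All are the authors' own values for each peak, used only to rank, filter or describe. Whole fragments, not cut sites, set the peaks in paired-end mode.

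Peaks outside the numbered chromosomes, X and Y were dropped, and the rest were joined into regions wherever they shared 1 bp or more, with gene spans from RefSeq GRCm38.p6, the assembly that mm10 names. The gene table gives no exons or UTRs, so only gene bodies and starts are stated. Equal lists kept the 12556 peaks with the highest −log10 q. Heights in regions called in all 6 lists were compared as log2(pileup + 1) with limma 3.58.1 (R 4.3.3), trend on, adjusted by Benjamini-Hochberg at 0.05, and tested on simulated data. A peak list has no value where no peak was called, and reads were not used here, so no test per region was made there. Promoter windows of all 6 genes (7 windows, since Rbp4 has 2) were matched by symbol in the RefSeq table and searched on both strands. Named genes were all 6 members, up to 3 genes per list with the most regions of one day only, and the 3 genes closest in peak number to a member with a mean of at least 3 peaks. The 6 genes, the 7 lists, the markers and the motifs were chosen with earlier results of these data known, so a planned p over the members' total was not given. The permutation p-values of single genes carry the same limit. They are descriptive and were not adjusted over the 6 genes or the kinds of list. Python 3.11.15, pandas 2.3.3 and scipy 1.17.1 were used.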

Additional observations from a re-analysis of the deposited data

How the results depend on the processing

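The lower number of adipokine peaks at day 1 (difference -7.67) turned to 2.67 on equal lists, and the number of genes with a peak at an end (-0.667) to 1.0. Both kept their sign under the other alternatives: leaving out 1 library in turn gave -10.2 to -5.17 and -0.833 to -0.333. The higher share of all peaks at day 1 (0.00954 percentage points) kept its sign in all 10 alternatives, 0.00624 to 0.0117 with 1 library left out. For all 3 differences 1 of the alternatives, the replicate block, leaves the value as it is by construction.

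Day 1 only adipokine regions numbered 2, with 0 on the deposited lists, 1 at a −log10 q of at least 5 and 1 in 500 bp bins. With at least 2 of 3 libraries they numbered 4, and in lists cut to N divided by 2 (N the length of an equal list) 0. With 1 library left out they numbered 2 to 4. The share of all regions moved as well. It was 5.71% at the main setting, 0.607% on the deposited lists, 4.07% at that q and 4.34% in bins. With at least 2 of 3 libraries it was 12.6%, and in lists cut to N divided by 2 it was 4.68%. With 1 library left out it was 6.76% to 8.52%. Leaving out day 1 replicate 2 gave 4 adipokine regions, and leaving out day 1 replicate 3 with longer lists also gave 4. Day 0 only regions numbered 1, with 3 on the deposited lists, 0 in such shorter lists and 0 to 1 with 1 library left out. The last 0 was without day 1 replicate 3 and with longer lists. Of all regions, 9.11%, 17.5%, 8.13% and 10.5% to 11.7% were day 0 only, in that order. With day 1 replicate 3 left out and list length kept, the counts were 2 and 1 as in the full set. Leaving out day 1 replicate 2 moved the first count to 4 without longer lists. The cause of these moves was not tested.

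For Nampt 24.8 kb past the end, the log2 difference of 0.86 lost its call with heights in FPM (0.63, adjusted p = 0.925), with quantile normalization (0.70, adjusted p = 0.0971) and with fold enrichment (0.47, adjusted p = 0.212); 1 library left out gave 0.46 to 1.20. Adjusted p was between 0.00374 and 0.925 over the alternatives. That scaling moved the median of all regions by -0.20. The region dropped out when only the taller regions by mean height were tested. The Nampt start gave 0.18 without day 1 replicate 1 and -0.19 to 0.18 with 1 library left out.

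Deviations of same-numbered libraries from the mean of their day had r = -0.03, 0.06 and 0.02. Differently numbered libraries had r between -0.08 and 0.06. The labels do not say whether the numbers pair the days. With 3 libraries per day these values cannot decide it. A replicate block cannot change the differences themselves, since each replicate number occurs once per day. They stayed at -7.67 peaks, 0.00954 percentage points, -0.667 genes, -0.06 at the Nampt start and 0.86 past its end. By limma with the block, the adjusted p past the end was 0.00869. With it 762 regions were higher and 640 lower, against 731 and 638 without it.

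The deposited lists limit what can be said of regions with no call: with smallest summits of 4 to 5 fragments, several day 0 regions scale to fewer than 10 fragments in day 1 libraries.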

Other observations

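Neighbours of the adipokine genes were picked for description with their values in view. Of 52 coding genes within 150 kb, 18 had a peak at an end in all 6 libraries and 16 in none. The share of all coding genes with a peak at an end in all 6 libraries or in none was not computed. These counts are therefore a description and not a result about these loci. Next to Adipoq the first group held Eif4a2, Rfc4 and Kng2, which encode a translation initiation factor, a subunit of replication factor C and a kininogen. Next to Retn it included Xab2, Pet100 and Fcor, next to Cfd the Mediator subunit gene Med16, 2.05 kb away, and next to Nampt Sypl. Close to Rbp4, Cep55 had a peak in all 6 libraries, while Ffar4, 2.36 kb away, and Pde6c had none. Close to Retn, Mcemp1 had none, and close to Cfd, the neutrophil elastase gene Elane had none.

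In equal lists, Eif4a2 was called at an end in 3 of 3 day 1 and 0 of 3 day 0 libraries and Rfc4 in 3 of 3 and 1 of 3, and Kng2 in 1 of 3 and 0 of 3. Xab2, Pet100, Med16, Sypl and Cep55 were called in 3 of 3 libraries of each day. Of all coding genes, 31.8%, 33.7% and 31.9% had a peak at an end in day 1 equal lists. In day 0 equal lists the shares were 27.0%, 26.9% and 25.7%. How many genes differ between the days as Eif4a2 did was not computed.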
